A study of Mus musculus with 8 samples.

Results

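The 10 genes described here encode connexins and adhesion proteins of the cardiac intercalated disc: Gja1, Gja5, Gjc1, Dsp, Dsg2, Dsc2, Pkp2, Jup, Cdh2 and Ctnna3. They were taken by symbol from GENCODE M21, and all 10 were found among the 35275 genes of the deposited table. Polyadenylated RNA of mouse heart ventricles was sequenced in 8 libraries, 4 of genotype WT and 4 of genotype RBX2iCKO. In the knockout, the cardiomyocyte promoter αMHC drives Mer-Cre-Mer, a Cre recombinase that tamoxifen switches on, to delete Rbx2 (gene symbol Rnf7, the RING subunit of cullin 5 ubiquitin ligases) in the adult heart. All 8 samples, WT included, are labelled as treated with tamoxifen. The sources used here do not give strain, age, time after tamoxifen or whether WT mice carried the Cre, although the titles of both groups start with MCM. The comparison asks how ventricles that lost Rbx2 in cardiomyocytes differ from WT ventricles.

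At the intercalated disc, cardiomyocytes are joined end to end. Gap junctions, built from connexins, let ions pass from cell to cell and carry the electrical impulse. Desmosomes hold the cells together through the cadherins desmoglein and desmocollin, whose tails bind plakoglobin, plakophilin and desmoplakin and through them the intermediate filament protein desmin. Adherens junctions do the same for actin filaments through N-cadherin and the catenins. Inherited defects of desmosomal genes are a known cause of arrhythmogenic cardiomyopathy in people.

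Levels are given as FPKM, a level scaled to gene length and to the library's counted fragments, as deposited. The library totals behind them were 18513924 to 22558094 fragments in WT and 18758692 to 23043686 in RBX2iCKO. Differences were taken as RBX2iCKO minus WT in log2(FPKM + 1), tested with limma and called at a Benjamini-Hochberg adjusted p under 0.05 over 13050 genes. The deleted gene Rnf7 had a mean of 37.3 FPKM ± 2.38 over the 4 WT libraries and of 7.15 FPKM ± 0.28 over the 4 RBX2iCKO libraries (SD). Esr1, whose mouse ligand-binding domain is part of Mer-Cre-Mer, ranged over 0.203 to 2.06 FPKM in WT libraries and 266 to 391 FPKM in RBX2iCKO libraries, so loss of Rbx2 and presence of the transgene cannot be told apart in any difference given here. The median of all genes tested was itself 0.21 higher in RBX2iCKO on the log2 scale, and 0.017 higher after median-of-ratios scaling, so the differences of the 10 genes and the counts of each list are also given after that scaling. The study's design counts 4 hearts of each genotype but ties no library to a mouse, and p-values measure only the spread between these libraries.

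Of the 10 genes, Gjc1 and Pkp2 rose in RBX2iCKO ventricles and Dsg2 fell, while 7 did not pass the test. Over all genes tested, 33.5% were called higher and 3.52% lower, or 37% in either direction. Gjc1 and Pkp2 are also the members whose groups did not overlap, against 34% of all genes whose RBX2iCKO libraries lay entirely above WT, 3.79% entirely below and 37.8% either way. The median log2 difference of the 10 was 0.087, against 0.21 for all genes, with 4 of them above that median and 6 below. After scaling, Gjc1 was still higher and Dsg2 still lower, Pkp2 no longer passed, and the median of the 10 was -0.17 (8.78% of all genes were then higher and 10.9% lower, 19.7% in all).

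**Figure D1:**
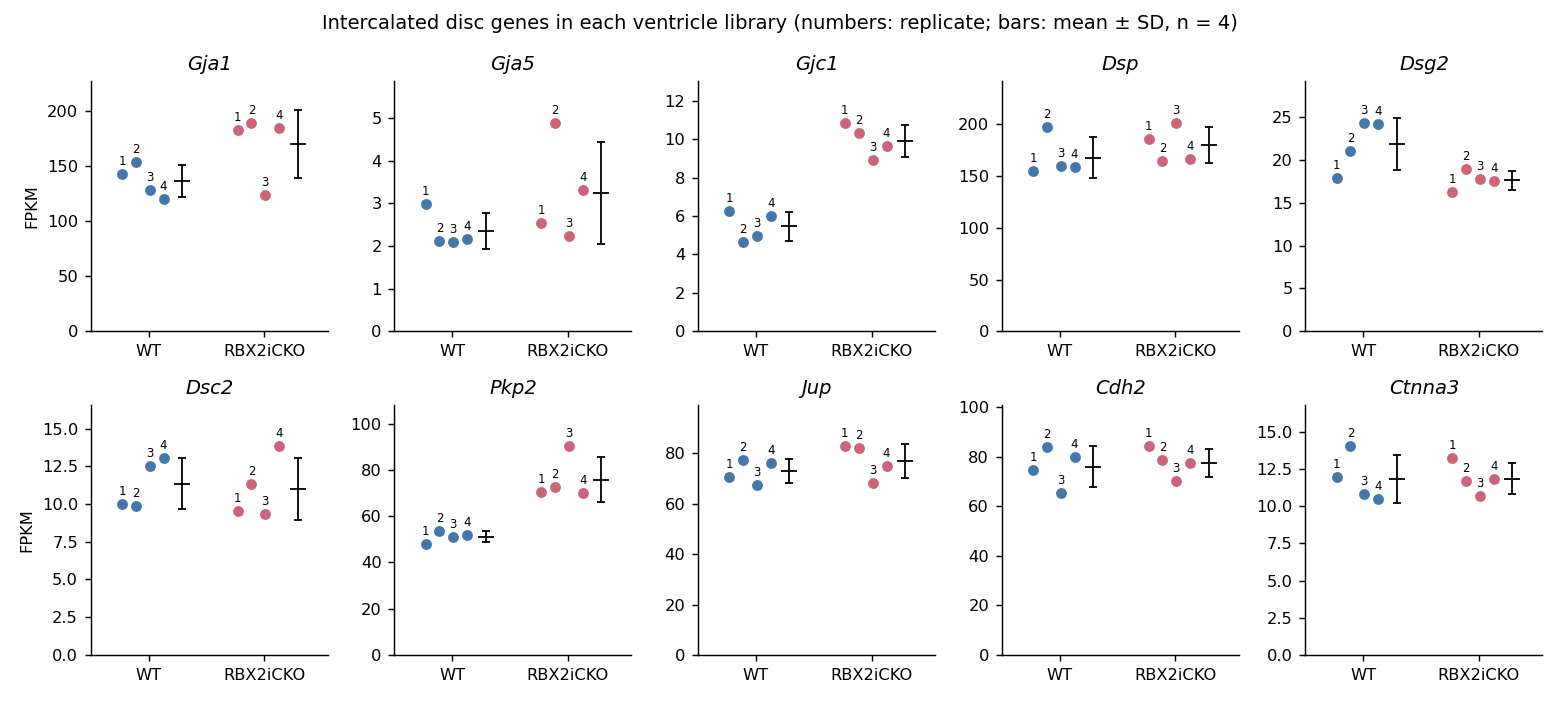
FPKM (y axes, from 0) of the 10 disc genes in each of the 4 WT and 4 RBX2iCKO libraries; points are libraries numbered by replicate, bars give mean ± SD. In the Gjc1 and Pkp2 panels every RBX2iCKO point lies above every WT point, and in the Gja1 panel RBX2iCKO replicate 3, at 123 FPKM, lies apart from the other RBX2iCKO libraries.

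The connexins came in very different amounts, and the proximal promoters of the abundant Gja1 and the scarce Gja5 are shown to place these genes, with that of Dsp, the most abundant desmosomal gene. RefSeq promoter windows on GRCm38.p6, 250 bases before to 50 after a start site, were available for 5 of the 10 genes (Gja1, Gja5, Dsp, Jup and Ctnna3). Gja1 lies at chr10:56377050-56377349, Gja5 at chr3:97032152-97032451 and Dsp at chr13:38151044-38151343, all on the plus strand. Capitals mark matches on either strand to 7 motifs. They are GGGCGG for the GC box, TATAAA for the TATA box and TGANTCA for the stress-responsive factor AP-1. For cardiac factors TNAAGTG was searched for NKX2-5, GGTGTGA for T-box proteins, AGATAA for the GATA family and GGAATG for TEAD proteins.
Gja1: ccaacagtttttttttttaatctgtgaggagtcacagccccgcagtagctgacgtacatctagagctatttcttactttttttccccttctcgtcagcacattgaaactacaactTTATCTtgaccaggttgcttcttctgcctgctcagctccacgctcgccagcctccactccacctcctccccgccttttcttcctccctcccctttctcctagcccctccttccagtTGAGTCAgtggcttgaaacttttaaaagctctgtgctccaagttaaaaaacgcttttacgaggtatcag
Gja5: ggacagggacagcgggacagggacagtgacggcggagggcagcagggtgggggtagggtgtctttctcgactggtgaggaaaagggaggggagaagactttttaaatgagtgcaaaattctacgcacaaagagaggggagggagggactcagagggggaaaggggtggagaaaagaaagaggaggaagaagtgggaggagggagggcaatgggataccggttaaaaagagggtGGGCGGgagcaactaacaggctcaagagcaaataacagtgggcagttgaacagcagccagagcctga
Dsp: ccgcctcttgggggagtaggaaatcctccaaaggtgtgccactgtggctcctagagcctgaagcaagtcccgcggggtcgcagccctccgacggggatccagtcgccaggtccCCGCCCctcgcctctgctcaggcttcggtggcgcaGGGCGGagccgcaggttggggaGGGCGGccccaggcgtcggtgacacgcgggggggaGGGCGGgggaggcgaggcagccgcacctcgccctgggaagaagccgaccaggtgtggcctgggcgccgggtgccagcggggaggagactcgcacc
In the Gja1 window 1 AP-1 and 1 GATA match were found and no GC box, in the Gja5 window 1 GC box, and in the Dsp window 4 GC boxes. None of these matches overlap. Of all 32851 promoter windows in the table, 35.7% hold the GC box, 7.81% the AP-1 letters and 11.2% the GATA letters, while the TATA box, NKX2-5, T-box and TEAD letters, absent from the windows shown, are in 13.6%, 11.5%, 3.98% and 14.7%. The matches describe letters and show no binding.

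Gja1 (ENSMUSG00000050953, chromosome 10, 56377330 to 56402513, plus strand of mm10) encodes Cx43, the main gap junction protein of the working ventricle. It was at 143, 154, 129 and 120.4 FPKM in WT replicates 1 to 4 and at 183, 189, 123 and 184 FPKM in RBX2iCKO replicates 1 to 4. RBX2iCKO replicates 1, 2 and 4 were higher than all WT libraries, and RBX2iCKO replicate 3 lay within the WT range. The difference between the means, 136 ± 14.9 and 170 ± 31.1 FPKM (SD, n = 4), did not pass (log2 0.30, 95% confidence interval -0.018 to 0.62, limma adjusted p = 0.118; after scaling 0.047, adjusted p = 0.855). Without RBX2iCKO replicate 3 it was 0.45 with a limma adjusted p = 0.00709, and after scaling without that library it was 0.19 (adjusted p = 0.254). The numbers in the sample titles fall into a lower run (2 WT and 1 RBX2iCKO library) and a higher run (2 and 3 libraries), and the difference was 0.30 within the lower and 0.38 within the higher run. Gja1 is also known from cardiac fibroblasts, and of 13 fibroblast markers 12 rose and 1 did not pass (10 higher after scaling), with summed levels of 952 to 1414 FPKM in WT libraries and 1749 to 2773 FPKM in RBX2iCKO libraries. Their part in the Gja1 values was not tested. In RNA of whole ventricle, fewer cells of a type and less RNA per cell cannot be told apart.

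Gjc1 (ENSMUSG00000034520, chromosome 11, 102799579 to 102819700, minus strand) encodes Cx45, a connexin of the embryonic heart and, in the adult, of the conduction system. It was at 6.24, 4.65, 4.94 and 5.99 FPKM in WT and at 10.9, 10.3, 8.93 and 9.63 FPKM in RBX2iCKO. All 4 RBX2iCKO libraries exceeded all 4 WT libraries. The rise was 1.82-fold, with means of 5.45 ± 0.777 and 9.93 ± 0.834 FPKM (SD, n = 4), or 0.76 in log2 with an SE of 0.10 (limma adjusted p = 0.00175). After scaling it was 0.54 (95% confidence interval 0.34 to 0.74, limma adjusted p = 0.00435). The difference was 0.89 within the lower and 0.72 within the higher run of title numbers. Of 9 conduction system markers 7 were tested, of which Irx3 rose as deposited and 6 did not pass, with summed levels of 23.7 to 32.7 FPKM in WT libraries and 27.5 to 38.3 FPKM in RBX2iCKO libraries. After scaling 0 of the 7 passed limma (Irx3 adjusted p = 0.234), with 0 at an unadjusted p under 0.05, while voom without scaling called 1 higher. Vascular smooth muscle also uses this connexin, and of 10 mural cell markers 2 rose and 1 fell (1 and 1 after scaling), with sums of 302 to 389 FPKM in WT libraries and 248 to 411 FPKM in RBX2iCKO libraries. Neither list of markers was at 0 for any gene in all libraries, and their part in the Gjc1 values was not tested.

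Gja5 (ENSMUSG00000057123, chromosome 3, 96904693 to 97077416, plus strand) encodes Cx40, which in the adult heart is found in atrial muscle, the ventricular conduction system and arterial endothelium. It was the least abundant member, at 2.97, 2.12, 2.10 and 2.17 FPKM in WT and 2.54, 4.89, 2.23 and 3.30 FPKM in RBX2iCKO, or 131 to 350 fragments per library. The groups overlapped, and the difference did not pass (log2 0.31, 95% confidence interval -0.091 to 0.72, limma adjusted p = 0.187). After scaling it was 0.13 (adjusted p = 0.637), and it was 0.0073 within the lower and 0.47 within the higher run of title numbers. Annotated exons of Gja5 overlap those of Gpr89 on the other strand (2.70 to 3.47 FPKM), and the sources used here do not say whether counting used strand.

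Myl7, the atrial myosin light chain, was at 237, 52.7, 0.422 and 10.6 FPKM in WT and at 5.24, 361, 1.32 and 94.8 FPKM in RBX2iCKO libraries. This gene was picked from the 9 atrial markers with its values known, so its order beside Gja5 is a description only. The 3 libraries with the most Gja5, RBX2iCKO replicates 2 and 4 and WT replicate 1, were also the 3 with the most Myl7. Of 9 atrial markers 3 rose (2 after scaling) and 6, Myl7 among them, did not pass, and their sum was 212 to 649 FPKM in WT libraries and 704 to 1607 FPKM in RBX2iCKO libraries. Nppa, also a stress gene of ventricular muscle, is part of that sum and rose from a mean of 10.51 FPKM to 384 FPKM. The sum is therefore not a measure of atrial tissue alone. Bmp10, another of the 9, was listed at 0 in RBX2iCKO replicate 1 and in all 4 WT libraries, WT replicate 1 included. Of 9 markers of arterial endothelium 4 rose (3 after scaling) and 5 did not pass, with sums of 34.2 to 43.6 FPKM in WT libraries and 55.9 to 68.1 FPKM in RBX2iCKO libraries. Whether these cells contribute to the Gja5 values was not tested.

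**Figure D2:**
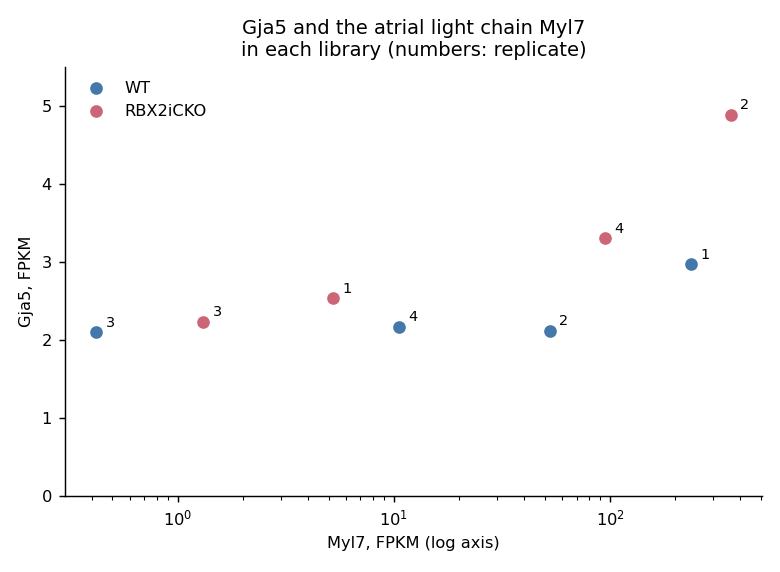
Gja5 (y axis, FPKM) against the atrial light chain gene Myl7 (x axis, FPKM, log axis) in each library; colours give the group and numbers the replicate. RBX2iCKO replicates 2 and 4 and WT replicate 1 are highest for both genes, and the other libraries lie between 2.10 and 2.54 FPKM of Gja5. Myl7 was picked out with its values known.

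Among the desmosomal cadherins, Dsg2 fell and Dsc2 did not pass. Dsg2 (ENSMUSG00000044393, chromosome 18, 20558074 to 20604521, plus strand) encodes the desmoglein of cardiomyocytes. It was at 17.9, 20.997, 24.3 and 24.2 FPKM in WT and at 16.3, 18.9, 17.7 and 17.6 FPKM in RBX2iCKO. WT replicate 1 lay within the RBX2iCKO range and the other 3 WT libraries above it. The fall was 1.24-fold, with means of 21.9 ± 3.04 and 17.6 ± 1.08 FPKM (SD, n = 4), or -0.29 in log2 with an SE of 0.10 (limma adjusted p = 0.0495). That call is marginal, since leaving out any 1 of the 7 libraries other than WT replicate 1 ended it (adjusted p up to 0.12). After scaling the difference was -0.53 (limma adjusted p = 0.00737), and it passed with each of the 8 libraries left out in turn (adjusted p 0.00295 to 0.0254). In the lower run of title numbers the 1 RBX2iCKO library lay below the 2 WT libraries, with a difference of -0.24. In the higher run the 3 RBX2iCKO libraries lay below the 2 WT libraries, with a difference of -0.41. The order in the lower run rests on 1 RBX2iCKO library, and Dsc2, which did not pass, was also below WT there.

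Dsc2 (ENSMUSG00000024331, chromosome 18, 20030633 to 20059554, minus strand), the desmocollin that pairs with Dsg2 in heart, ranged from 9.85 to 13.1 FPKM over WT libraries and from 9.32 to 13.8 FPKM over RBX2iCKO libraries. The ranges overlapped almost entirely (log2 -0.047, 95% confidence interval -0.35 to 0.26, limma adjusted p = 0.797; after scaling -0.28, adjusted p = 0.166). The interval leaves room for a difference of the size seen for Dsg2.

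In the desmosomal plaque, Pkp2 rose while Dsp and Jup did not pass. Pkp2 (ENSMUSG00000041957, chromosome 16, 16213318 to 16272712, plus strand) encodes plakophilin-2, which links the cadherins to desmoplakin. It was at 47.8, 53.6, 50.8 and 52.0 FPKM in WT and at 70.3, 72.7, 90.1 and 69.8 FPKM in RBX2iCKO. All RBX2iCKO libraries exceeded all WT libraries, with replicate 3 the highest. The rise was 1.48-fold, with means of 51.0 ± 2.43 and 75.7 ± 9.67 FPKM (SD, n = 4), or 0.55 in log2 with an SE of 0.090 (limma adjusted p = 0.00332). After median-of-ratios scaling it was 0.30 and no longer passed (95% confidence interval 0.082 to 0.52, limma adjusted p = 0.0576). The call was lost in 10 of 24 alternative fits, all with that scaling. Under quantile normalization the rise was 0.42 (limma adjusted p = 0.0189). With mitochondrial-encoded genes removed it was 0.43 (limma adjusted p = 0.00909). The Pkp2 difference was 0.47 within the lower and 0.57 within the higher run of title numbers.

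Dsp (ENSMUSG00000054889, chromosome 13, 38151294 to 38198577, plus strand) encodes desmoplakin, the anchor of desmin filaments and the member of highest mean level. It was at 155, 198, 160 and 158 FPKM in WT and at 186, 165, 202 and 167 FPKM in RBX2iCKO. The groups overlapped, with WT replicate 2 and RBX2iCKO replicate 3 the highest of their groups (log2 0.10, 95% confidence interval -0.12 to 0.32, limma adjusted p = 0.429). Jup (ENSMUSG00000001552, chromosome 11, 100368958 to 100397763, minus strand) encodes plakoglobin, a catenin shared by desmosomes and adherens junctions. Its libraries ranged over 67.7 to 77.6 FPKM for WT and 68.3 to 82.8 FPKM for RBX2iCKO, overlapping (log2 0.073, 95% confidence interval -0.11 to 0.26, limma adjusted p = 0.484).

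The adherens junction members Cdh2 and Ctnna3 had nearly equal group means. Cdh2 (ENSMUSG00000024304, chromosome 18, 16588877 to 16809246, minus strand) encodes N-cadherin, the classical cadherin of the disc. Its values were 65.2 to 84.1 FPKM over WT libraries and 70.2 to 84.2 FPKM over RBX2iCKO libraries, overlapping (log2 0.032, 95% confidence interval -0.17 to 0.24, limma adjusted p = 0.792). Ctnna3 (ENSMUSG00000060843, chromosome 10, 63430098 to 65003667, plus strand) encodes αT-catenin, which binds plakophilin-2 and is found mainly in heart and testis. Its values were 10.47 to 14.01 FPKM over WT libraries and 10.7 to 13.2 FPKM over RBX2iCKO libraries, overlapping (log2 0.0086, 95% confidence interval -0.22 to 0.23, limma adjusted p = 0.948). For Dsp, Jup, Cdh2 and Ctnna3 the sign of the difference turned negative after scaling, at -0.15, -0.18, -0.22 and -0.23, with no call.

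**Figure D3:**
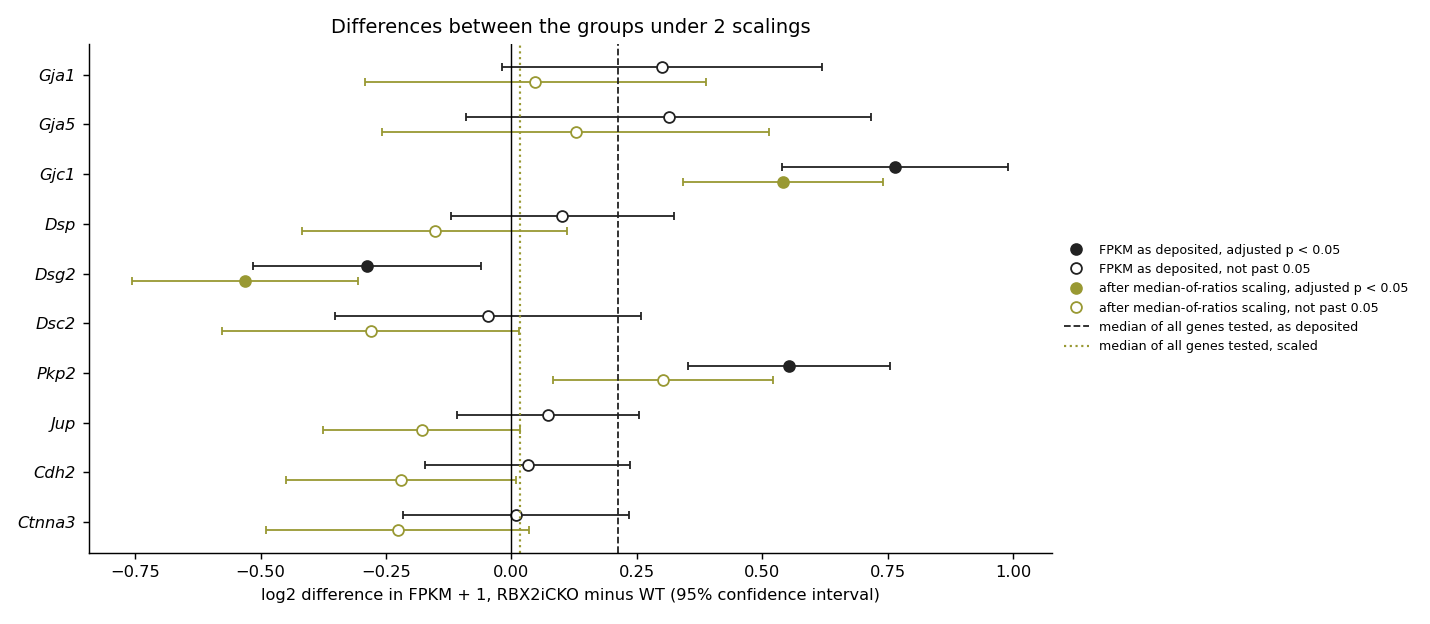
Log2 difference in FPKM + 1, RBX2iCKO minus WT (x axis), with its 95% confidence interval, for the 10 genes as deposited (black) and after median-of-ratios scaling (olive); filled points passed the limma test. Gjc1 and Dsg2 are filled under both, Pkp2 as deposited only, and the dashed and dotted lines mark the medians of all genes, 0.21 and 0.017.

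Since FPKM is per length, levels can be ordered across the members. In WT the order of mean FPKM was Dsp, Gja1, Cdh2, Jup, Pkp2, Dsg2, Ctnna3, Dsc2, Gjc1 and Gja5, and the same order held for the means in RBX2iCKO. Among neighbours in WT, the ranges of Cdh2 and Jup overlapped and so did those of Ctnna3 and Dsc2, while the other 7 neighbouring pairs were apart. In RBX2iCKO 5 neighbouring pairs overlapped: Dsp with Gja1, Cdh2 with Jup, Jup with Pkp2, Ctnna3 with Dsc2, and Dsc2 with Gjc1. The higher Pkp2 and Gjc1 levels thus reached those of Jup and Dsc2 in at least 1 library. The length that the deposited values imply for Gja1 is 3105 bases, against 10257 bases of merged annotated exons, so the order rests on the lengths the authors used.

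Ratios of junction genes within a library do not depend on how libraries are scaled, and 7 were compared. Gjc1 relative to Gja1 had means of 0.0405 ± 0.00829 for WT and 0.0596 ± 0.009 for RBX2iCKO (SD, n = 4), with no overlap (two-sided exact permutation p = 0.0286). Pkp2 relative to Dsp was 0.306 ± 0.0247 and 0.421 ± 0.0308, again with no overlap (exact permutation p = 0.0286). Jup relative to Ctnnb1, the beta-catenin gene, was 0.694 ± 0.067 and 0.567 ± 0.0135, lower in all 4 RBX2iCKO libraries (exact permutation p = 0.0286). A p of 0.0286 is the smallest that 70 assignments allow, and adjusted over the 7 ratios it became 0.0667, so none passed. The adjusted test could pass a ratio only if most of the 7 had this smallest p. It therefore cannot decide on these ratios. Dsg2 relative to Cdh2 was 0.291 ± 0.061 and 0.228 ± 0.0255 (exact permutation p = 0.143, adjusted 0.2; the log2 difference of -0.33 was -0.21 without WT replicate 3), and Dsc2 relative to Dsg2 was 0.52 ± 0.0383 and 0.624 ± 0.112 (exact permutation p = 0.0857, adjusted 0.15). Gja5 relative to Gja1 and Ctnna3 relative to Ctnna1, the alpha-E-catenin gene, overlapped between groups (exact permutation p = 0.6 and 0.686).

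**Figure D4:**
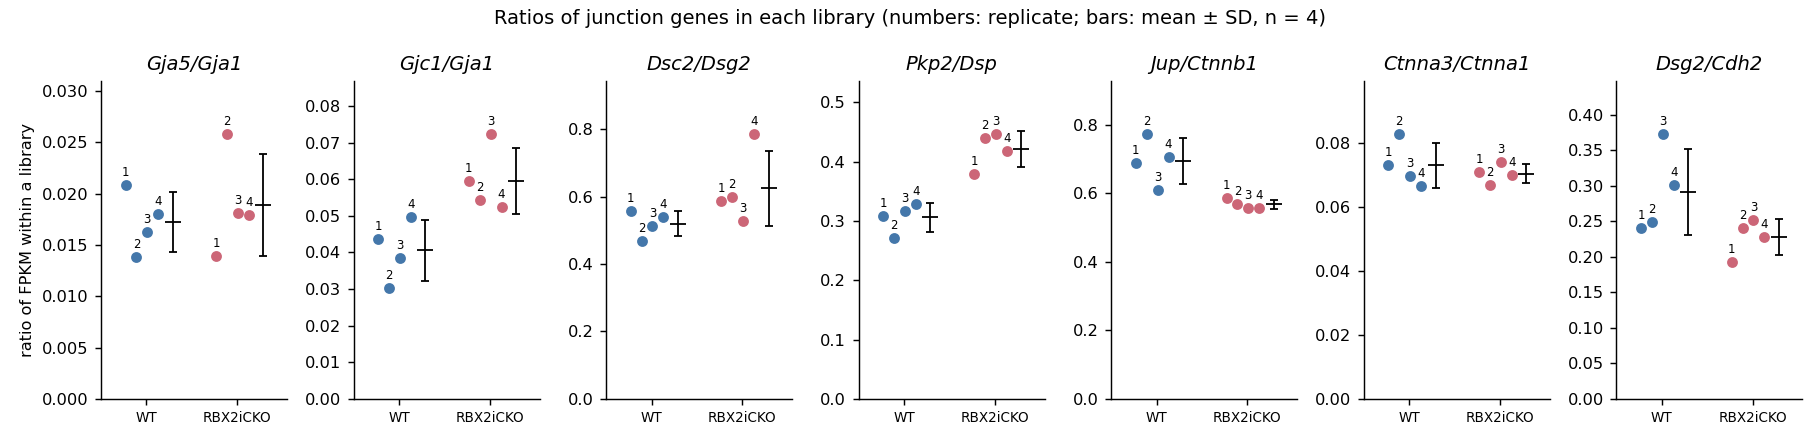
Ratio of FPKM within each library (y axes, from 0) for 7 pairs of junction genes; points are libraries numbered by replicate, bars give mean ± SD, n = 4. The groups do not overlap for Gjc1/Gja1, Pkp2/Dsp and Jup/Ctnnb1.

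Around these members, 82 other genes of connexins, desmosomes, adherens junctions and disc scaffolds were listed, of which 52 were abundant enough to test. Of the 52, 22 rose, 2 fell and 28 did not pass, where 33.5% of all genes tested were called higher and 3.52% lower. Their median log2 difference was 0.27 against 0.21 for all genes. After scaling 3 were higher and 3 lower, where 8.78% of all genes were higher and 10.9% lower, and the median was 0.053. The same shares of all genes stand against the limma adjusted counts of every list of genes given here. Voom without scaling called 4480 of the 13050 genes higher and 467 lower. For counts at an unadjusted p under 0.05 no share of all genes was computed. Those counts therefore cannot be read as more or fewer than usual.

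Among 20 other connexins and pannexins 4 were tested, of which 2 rose, also after scaling. Gja4, an arterial endothelial connexin, rose 1.78-fold, with means of 5.02 ± 0.869 and 8.93 ± 1.15 FPKM (SD, n = 4; limma adjusted p = 0.0037). Panx1, a pannexin that forms ATP-release channels, rose, with means of 0.515 ± 0.132 and 1.75 ± 0.44 FPKM (SD, n = 4; log2 0.85, limma adjusted p = 0.00327). Both passed after scaling (limma adjusted p = 0.0138 and 0.00693). Gja3, at 9.27 and 8.90 FPKM, and Panx2, at 0.422 and 0.612 FPKM, did not pass. Gja10, Gjb6 and Gje1 were listed at 0 in all 8 libraries.

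Among 13 other desmosomal genes 3 were tested, of which 1 rose and 1 fell, and only the fall passed after scaling. Pkp4, a plakophilin relative, rose 1.198-fold (limma adjusted p = 0.0331; 0.963 after scaling). Ppl, the plakin gene periplakin, fell, with means of 2.90 ± 0.224 and 1.93 ± 0.688 FPKM (SD, n = 4; log2 -0.44, limma adjusted p = 0.0414; 0.0179 after scaling). Perp, a tetraspan desmosomal gene, was at 75.5 and 89.8 FPKM and did not pass. The untested genes of this list, epidermal desmogleins and desmocollins among them, did not exceed 0.278 FPKM in any library.

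Of 19 other adherens junction genes 15 were tested, and 6 rose as deposited, while 9 did not pass. After scaling 0 passed limma in either direction, against 1 higher and 1 lower at an unadjusted p under 0.05, and voom on recovered fragments without scaling called 7 higher. Ctnnb1 rose 1.29-fold, with means of 106 ± 4.90 and 136 ± 9.74 FPKM (SD, n = 4; log2 0.36, limma adjusted p = 0.0066). Vcl, the actin linker vinculin, rose 1.23-fold and Arvcf, a p120-catenin relative, 1.40-fold. Nectin1, a nectin adhesion receptor, and Ctnnd1, p120-catenin, rose from low levels, 0.722 to 1.29 FPKM and 1.12 to 1.77 FPKM. Ctnna1, the most abundant of them at 162 FPKM in WT, did not pass (log2 0.057, limma adjusted p = 0.602).

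All 30 scaffold and linker genes were tested, and 13 rose and 1 fell, against 1 and 2 after scaling. Zyx, the focal adhesion protein zyxin, rose 1.78-fold, with means of 15.8 ± 2.12 and 28.1 ± 4.43 FPKM (SD, n = 4; log2 0.79, limma adjusted p = 0.00326), and passed after scaling (adjusted p = 0.0103). Tmem65, a disc membrane protein known in mouse to act with Cx43, fell, with means of 69.5 ± 4.62 and 48.7 ± 5.43 FPKM (SD, n = 4; log2 -0.51, limma adjusted p = 0.00453; scaled -0.76). Sorbs2, an actin-associated adaptor, rose 1.52-fold, Enah, an actin regulator, 1.39-fold, and Cxadr, the coxsackievirus and adenovirus receptor of the disc, 1.37-fold, all as deposited and none after scaling. Des, desmin, rose 1.33-fold, from 604 to 800.5 FPKM, as deposited (limma adjusted p = 0.0124; 0.364 after scaling). Actn2, at 650.3 and 759 FPKM, did not pass (adjusted p = 0.0691).

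**Figure D5:**
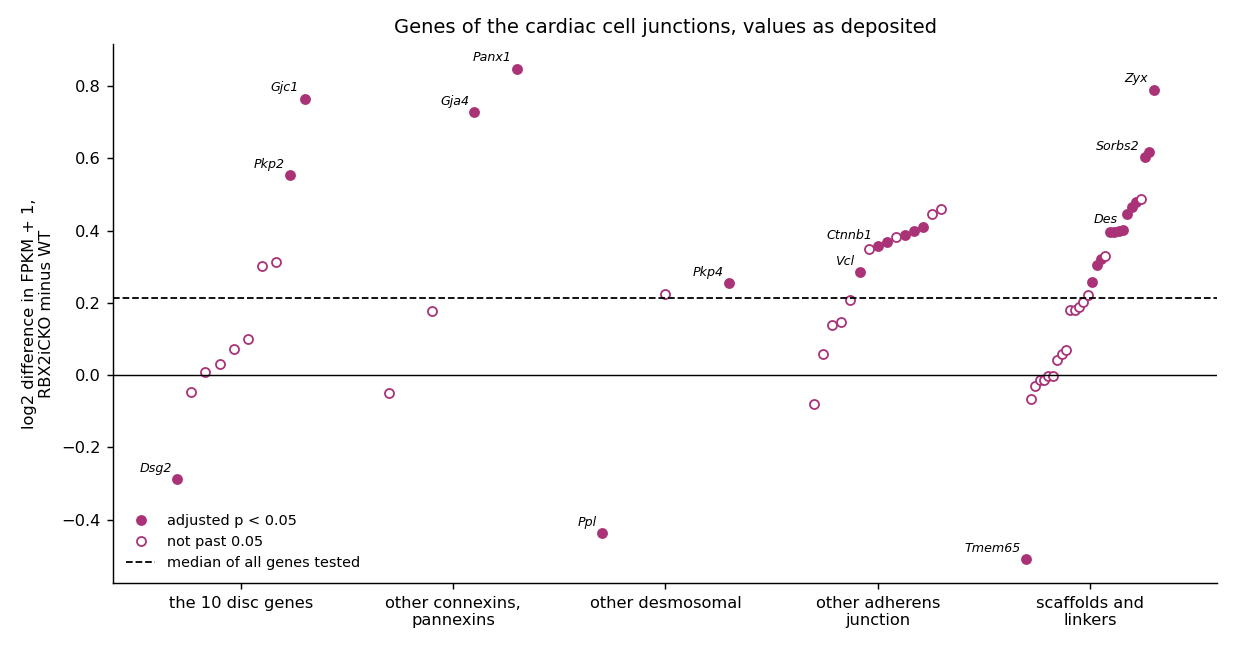
Log2 difference in FPKM + 1, RBX2iCKO minus WT (y axis), of each gene tested among the 10 disc genes and 4 lists of other junction genes (x axis), values as deposited; filled points passed the limma test and the dashed line is the median of all genes, 0.21. Zyx, Panx1, Gjc1 and Gja4 lie highest and Tmem65 lowest.

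Among the protein-coding genes whose log2(FPKM + 1) followed Gja1 most closely over the 8 libraries were Plcl2 (Pearson r = 0.985) and Poc1b (0.969). For Dsp they were Six4 (0.913), Mpv17l (0.908) and 4932438A13Rik (0.905). For Cdh2 they were Smyd1 (0.942), Specc1l (0.938) and Ttl (0.938). These are among the highest values of all genes compared, over 8 points, and describe these libraries only.

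The labels give the cell type as cardiomyocytes, but the RNA was of minced ventricle, and markers of other cells were present in all libraries. Ventricular cardiomyocyte markers summed to 46572 to 48451 FPKM in WT libraries and 41957 to 49412 FPKM in RBX2iCKO libraries, and of 14 such genes 3 rose (Actc1 among them, while Mb did not pass) and 3 fell as deposited. After scaling 0 of the 14 were higher and 4 lower by limma, with 0 and 8 at an unadjusted p under 0.05, and their median log2 difference was -0.26 (voom without scaling called 3 and 3). Of the other marker lists, 6 of 12 endothelial genes rose and 6 did not pass (Fabp4 rose, Cav1 did not pass), with sums of 639 to 839 FPKM in WT libraries and 926 to 1062 FPKM in RBX2iCKO libraries. After scaling 0 of the 12 passed limma (Fabp4 adjusted p = 0.199), with 2 higher and 1 lower at an unadjusted p under 0.05, while voom without scaling called 8 higher. Of 10 macrophage genes 4 rose and 6, C1qa and Lyz2 among them, did not pass (2 higher after scaling). Of 6 mesothelial genes tested 2 rose, Krt18 among them and Upk3b not (1 after scaling). Of 5 Schwann cell genes tested 1 rose as deposited (Cnp), and after scaling 0 passed limma, with 1 lower at an unadjusted p under 0.05, while voom without scaling called 1 higher. Dcn rose and Gsn did not pass among fibroblast markers, Pam rose among atrial markers, Fbln5 rose among arterial ones, Abcc9 fell and Rgs5 did not pass among mural ones, and Cacna1g did not pass among conduction markers. Their part in the differences of the disc genes was not tested.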

How the data were processed

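The authors deposited 1 table of FPKM values with a column for each of the 8 libraries. Per the submitters' processing notes they used build mm10. The aligner, counter, annotation and strand handling were not given in the sources used here. Groups come from the labelled genotype, and replicate numbers are names only. Symbols and coordinates are from GENCODE M21 (GRCm38, the same build), which held 34490 of the 35275 gene identifiers.

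A mean of at least 0.5 FPKM was required, and log2(FPKM + 1) was fitted with limma 3.58.1 (trended eBayes, R 4.3.3), two-sided. Because FPKM is relative to the library total, a change in abundant transcripts can move all others. Mitochondrial-encoded genes took 22.5% to 25.0% of fragments in WT and 14.6% to 18.9% in RBX2iCKO. As deposited, 4374 of 13050 genes were called higher and 459 lower. With the mitochondrial-encoded genes removed and the rest rescaled, 2034 of 13474 genes were called higher and 714 lower. The cause of the shift in the median of all genes was not tested. Median-of-ratios factors were 0.859 to 0.945 in WT and 1.07 to 1.12 in RBX2iCKO. Steps in the FPKM values gave the worth of 1 fragment, and whole fragments (tolerance 0.01) were recovered for 100% of the 13050 genes tested, which gave library totals and a voom fit. With these totals, counting error is small except for Gja5.

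The test was checked on counts simulated from the WT means, with 200 changed genes. It recovered 91.0% of those changed 1.5-fold, 98.5% at 2-fold and 100% at 4-fold, and called 14 unchanged genes. The simulation held no shift across all genes, so it does not bear on the choice of scaling. Ratios were compared by exact permutation of libraries, by the absolute difference in means of the log2 ratio.

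The members and lists were chosen with earlier results of these data known. Genes named besides the members were, per junction list, the 5 of smallest p and the 2 of highest mean FPKM, per marker list the 2 of highest mean FPKM, and the 3 most correlated with Gja1, Dsp and Cdh2. Muc16, in the mesothelial list, was not used. Some genes that the rule names are not reported here. Software besides R was Python 3.11.15 with pandas 2.3.3, numpy 2.4.6 and matplotlib 3.10.9.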

Additional observations from a re-analysis of the deposited data

Results flagged for a closer look

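In 36 sets of 4 values (each disc gene, Rnf7 and each ratio, in each group), 4 held a library far from the other 3, where chance gives about 1.8. RBX2iCKO replicate 3 was lowest for Gja1, at 123 FPKM against 183 to 189 FPKM, and highest for Pkp2, at 90.1 FPKM against 69.8 to 72.7 FPKM. WT replicate 1 was highest for Gja5, at 2.97 FPKM against 2.10 to 2.17 FPKM. WT replicate 2 was highest for Dsp, at 198 FPKM against 155 to 160.2 FPKM.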

How the results depend on the processing

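Gjc1 kept its direction and its call under all 24 alternatives. Pkp2 kept its direction in all and its call in 14, losing it under median-of-ratios scaling and its variants, and Dsg2 kept its direction in all and its call in 16. The 24 are not separate checks, since many refit the main model or the scaled one with a library left out. As deposited 2 members were higher and 1 lower, 22 other junction genes were higher and 2 lower, and 4374 of all genes were higher and 459 lower. Median-of-ratios scaling gave 1 member, 3 junction genes and 1146 of all genes higher, and 1419 of all genes lower. With the title number series as a covariate as well, these were 1, 4, 1095 and 1341. Quantile normalization gave 5 junction genes higher, and 864 of all genes higher and 1241 lower, and removal of mitochondrial-encoded genes gave 11, 2034 and 714. Without a filter on low values 0 members were lower (limma; Dsg2 adjusted p = 0.0797), against 1 at an unadjusted p under 0.05 in that fit; voom, run with the filter only, called 1.

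Signs turned negative for Dsp, Jup, Cdh2 and Ctnna3 under median-of-ratios scaling (-0.15, -0.18, -0.22 and -0.23), with the series covariate too (-0.12, -0.15, -0.18 and -0.16), under quantile normalization (-0.044, -0.067, -0.10 and -0.22) and without mitochondrial-encoded genes (-0.023, -0.050, -0.091 and -0.11). None of these was called.

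Leaving out each library in turn gave 2 to 3 members higher and 0 to 1 lower (after scaling 1 and 1 to 2), 16 to 24 other junction genes higher and 1 to 2 lower (after scaling 3 to 6 and 3 to 6), and 2895 to 4386 of all genes higher and 327 to 452 lower (after scaling 677 to 1367 and 979 to 1463). The third higher member is Gja1 without RBX2iCKO replicate 3, and the second lower one after scaling is Dsc2 without RBX2iCKO replicate 4. With 1 library left out, Cdh2 ranged from -0.038 to 0.082 (after scaling -0.30 to -0.14), Ctnna3 from -0.042 to 0.087 (-0.29 to -0.12), Dsc2 from -0.15 to 0.021 (-0.40 to -0.22), Dsp from 0.044 to 0.18 (-0.21 to -0.042), Jup from 0.037 to 0.13 (-0.22 to -0.12), Gja1 from 0.24 to 0.45 (-0.025 to 0.19) and Gja5 from 0.14 to 0.43 (-0.031 to 0.24). Log2 ratio differences ranged from 0.44 to 0.68 for Gjc1/Gja1 (0.46 with 1 added to each FPKM, exact permutation p = 0.0571), from -0.35 to -0.23 for Jup/Ctnnb1, from 0.40 to 0.51 for Pkp2/Dsp, from 0.14 to 0.33 for Dsc2/Dsg2, from -0.42 to -0.21 for Dsg2/Cdh2 (exact permutation p 0.0571 to 0.286), from -0.045 to 0.25 for Gja5/Gja1 and from -0.090 to 0.014 for Ctnna3/Ctnna1. With a library left out, fewer assignments remain, so the exact permutation p moves in coarser steps. It was 0.0286 to 0.0571 for Gjc1/Gja1 and Jup/Ctnnb1, whose groups still did not overlap. Why single libraries move the differences was not tested. The fits that combine scaling with a left-out library or the covariate were added after the data were seen. No paired analysis was possible because the labels give the groups no shared replicate numbers.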
